A study of Helianthus annuus with 9 samples.

Results

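Reads that matched small nucleolar RNA (snoRNA) models were followed through 3 stages of sunflower seed development. The members are the 129 entries whose type is given as snoRNA, of 8473 small RNA entries in the deposited table and of 294 entries for structural RNA (ribosomal, transfer, small nuclear, small nucleolar and other Rfam RNA). Each entry is one Rfam model, a family alignment that reads are matched to. The libraries were made from seeds of L-1-OL-1, a line of sunflower (Helianthus annuus) that is described as high in oleic acid and was grown in a field, with 3 libraries on day 7, 3 on day 22 and 3 on day 37. All libraries share the line and the growth conditions, and no source used here says from which event days are counted. Nor does any say whether a day's 3 libraries stem from different plants, so the p-values speak of the spread among these libraries, which may be technical. No mRNA of a seed tissue was measured here, so the label of the tissue could not be set against marker genes. Since a gel band of 18 to 30 nt was sequenced and the 4143 snoRNA genes in RefSeq's sunflower annotation (assembly HanXRQr2.0-SUNRISE) have a median length of 107 bases, the reads are fragments of snoRNAs rather than whole molecules. That annotation names its snoRNA genes by locus number alone, so no entry was tied to a gene or a position.

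SnoRNAs are stable RNAs of the nucleolus that act inside protein complexes, mostly as guides. C/D box snoRNAs guide ribose methylation and H/ACA box snoRNAs guide pseudouridine formation, both chiefly on ribosomal RNA, while a few, among them U3 and U14, take part in the cleavage of the ribosomal RNA precursor. Related RNAs of the Cajal body guide the modification of spliceosomal RNAs. In plants many snoRNA genes stand in clusters and are transcribed together, and families named snoR, R or Z were largely described in plants.

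The Description column tells the box for 32 entries, all of them C/D, by the words C/D or by a SNORD or U3 name. It gives an H/ACA box for 0 entries and leaves the box of 97 untold. Of the untold entries, U18, U31b, U36a, U49, U61 and U83 share their numbers with human C/D box snoRNAs, and snoR2/U65 shares its number with a human H/ACA box snoRNA. By naming style, 48 entries carry plant-style names (snoR, R, Z, or the word plant), 28 are named SNORD as in vertebrates, 9 carry a U number, 7 are named snR as in budding yeast, 16 are named sR as in archaea, 8 name a fungus, 10 name another organism and 3 have other names. A joint name was grouped by its first part, so Z13/snr52, Z159/U59 and Z195/SNORD33/SNORD32 are among the plant-style entries. A model named for one organism can be matched by RNA of another, and how reads that match several models were counted is not given, so related entries (SNORD61 and U61, or R12 and Z152/R70/R12) may share reads.

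A library held 31011803 to 34397084 reads in all and 2208822 to 4050364 in small RNA entries. The snoRNA entries held 1953, 1691 and 1570 reads in replicates 1, 2 and 3 of day 7, 4375, 4716 and 3753 at day 22, and 12048, 8998 and 9010 at day 37. The 3 days did not overlap. Day 37 replicate 1 stood above the other libraries of its day in tRNA, with 13234 reads against 1792 and 2252, and in 5S ribosomal RNA, with 1490 reads against 216 and 169. The share of small RNA reads, the counts of called entries, snoR60 and U18 are given with and without it. Other day 37 values include it unless said otherwise.

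The share of snoRNA fragments in the small RNA pool was larger at each later stage. They held 0.0769% ± 0.0101 of the small RNA reads on day 7, 0.123% ± 0.0198 on day 22 and 0.260% ± 0.0539 on day 37 (SD, n = 3). Day 22 was 1.60-fold above day 7, day 37 was 2.11-fold above day 22, and day 37 was 3.38-fold above day 7. As a share of all reads, which include the totals for exons, introns and intergenic sequence, the ratios were larger. SnoRNAs held 0.00540% ± 0.000814 of all reads on day 7, 0.0129% ± 0.00189 on day 22 and 0.0310% ± 0.00628 on day 37, and the 3 ratios were 2.38, 2.41 and 5.74. In both measures every library of a later day lay above every library of an earlier day. The exact two-sided permutation p was 0.1 for each of these 6 comparisons, the smallest that 3 against 3 libraries can give, and 0.12 after Benjamini-Hochberg adjustment over the 12 share comparisons made. Without day 37 replicate 1, the share of small RNA reads at day 37 was 0.106 percentage points above day 22 and 0.152 above day 7, where all libraries gave 0.137 and 0.183. These are shares of reads from fragments, and the amount of whole snoRNAs was not measured. In seed tissue sequenced in bulk, more cells of a type and more RNA per cell cannot be told apart.

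The share of structural RNA of all kinds was also highest at the last stage. It held 3.72% ± 0.434 of small RNA reads on day 7, 5.51% ± 1.37 on day 22 and 17.2% ± 4.45 on day 37. Within structural RNA, snoRNAs held 2.07% ± 0.0842 on day 7, 2.27% ± 0.260 on day 22 and 1.52% ± 0.0744 on day 37. The day 37 libraries lay below all others (exact two-sided permutation p = 0.1 against either day, adjusted 0.12), while day 22 overlapped day 7 (p = 0.3, adjusted 0.3). For every 1000 reads of ribosomal RNA there were 23.8 ± 0.960 snoRNA reads on day 7, 25.8 ± 2.83 on day 22 and 17.1 ± 0.590 on day 37. Against spliceosomal and other small nuclear RNA day 37 was highest instead of lowest, with 444 ± 29.6 snoRNA reads per 1000 on day 7, 666 ± 103 on day 22 and 1749 ± 241 on day 37. The direction of the snoRNA class at day 37 thus depends on the RNA it is set against.

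**Figure D1:**
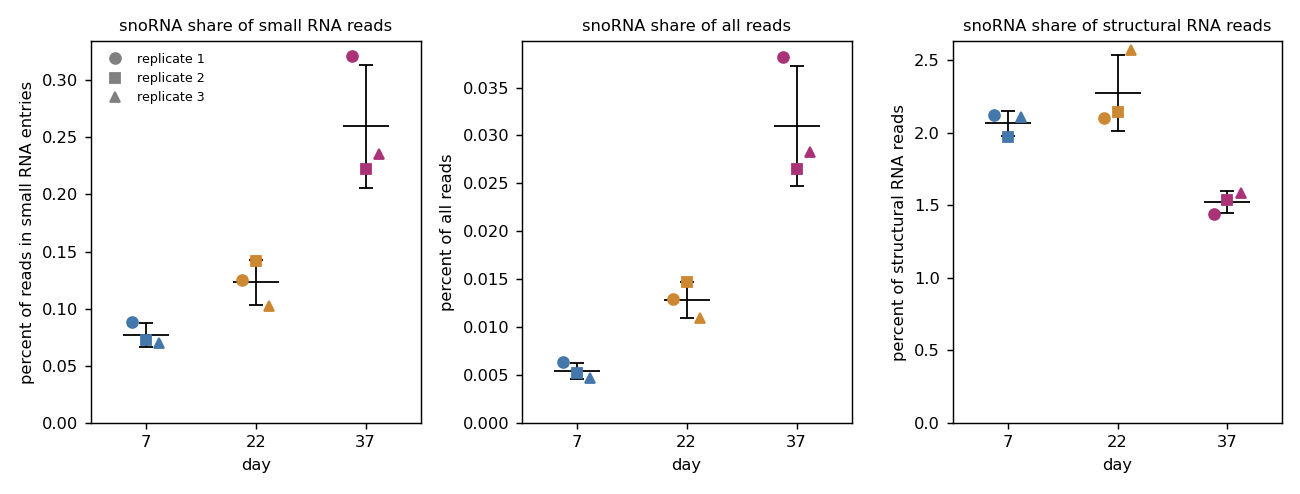
Share of reads in snoRNA entries at days 7, 22 and 37, as percent of reads in small RNA entries (left), of all reads (middle) and of structural RNA reads (right). Points are libraries, horizontal lines are means and bars are SD of 3 libraries; the first pair of shares is highest at day 37, at 0.260% and 0.0310%, and the share within structural RNA is lowest there, at 1.52%.

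Single entries were tested in edgeR, and their levels are given as CPM, counts for every 1000000 small RNA reads of a library after scaling by TMM factors. These factors were 1.34 to 1.41 on day 7, 0.965 to 1.05 on day 22 and 0.693 to 0.743 on day 37. Of the 129 entries 41 passed the filter on low counts, and these hold 97.9% of all snoRNA reads. The filter's level was 2.86 counts for every 1000000 small RNA reads, before scaling by TMM factors. All 41 exceeded it in every day 37 library, 30 did so in every day 22 library and 20 in every day 7 library. Entries could thus pass through day 37 alone, and the counts over the 41 are a description of them. At day 22 against day 7, 24 of the 41 were higher and 1 was lower at an adjusted p under 0.05, beside 35.3% of all 7294 small RNA entries tested that were higher and 34.5% that were lower (69.8% called). The comparison of day 37 with day 22 again had 24 higher and 1 lower, beside 18.8% and 31.8% of all entries (50.6% called). Day 37 with day 7 gave 39 higher and 1 lower, beside 33.1% and 45.6% (78.7% called). The median log2 change of the tested snoRNAs was 1.54, 1.44 and 3.09 in these 3 comparisons, and that of all entries tested was -0.01, -0.15 and -0.57. Of the 31 other structural entries tested, 9, 17 and 22 were higher and 3, 3 and 5 lower, with median log2 changes of 0.68, 1.69 and 2.68. The comparisons share libraries and are not independent of each other. Among the 20 entries that reached the filter's level in all 3 day 7 libraries, 18 were higher at day 37 than at day 7, 1 was lower and 1 was not called.

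Scaling to structural RNA totals changed these counts most. Of 36 entries tested under it, 11 were higher and 4 lower at day 22 against day 7, 3 higher and 14 lower at day 37 against day 22, and 3 higher and 7 lower at day 37 against day 7. With it the sign of the change at day 37 against both other days turned negative in snoR20a, snoR14, snoR60, snoR64a and Z152/R70/R12, and against 1 of them in SNORD14, snoR86, R16 and Small Cajal body specific RNA 6, whereas Afu_294, U61's first step and plant U3's fall kept theirs. Under it snoR14 at day 37 against day 7 (-1.23, edgeR adjusted p = 0.000611) and snoR86 at day 37 against day 22 (-1.17, adjusted p = 0.0367) were called lower. Scaling to known miRNA totals gave 13 higher and 3 lower at day 22 against day 7. Without day 37 replicate 1 the counts against day 22 and day 7 were 21 and 36 higher, with 1 lower in each.

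**Figure D2:**
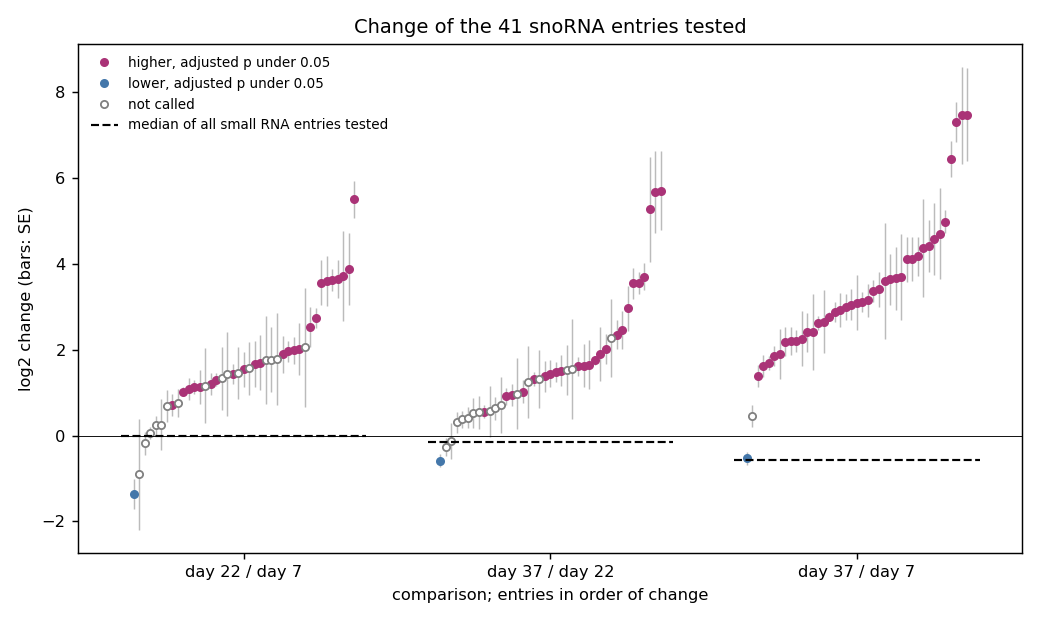
Fitted log2 change of the 41 tested snoRNA entries in the 3 comparisons, each later day over the earlier one, in order of size, with bars for the standard error. Filled points passed an adjusted p under 0.05 and dashed lines mark the median of all small RNA entries tested; 24, 24 and 39 entries are higher and 1 is lower in each comparison.

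By their calls over the stages the 41 entries fall into 6 patterns. In 14 entries both steps were called rises, among them snoR20a, snoR64a, snoR86, Z43, Z105, SNORD61, SNORD96 and snoR2/U65. In 10 entries the first step alone was called, among them SNORD14, U61, R160, R24, U49 and U31b. In 9 entries the second step alone was called, among them snoR14, R16, U83 and SNORD57. In 6 entries, snoR60, Z152/R70/R12, Z103, R11/Z151, SNOR75 and R12, neither step was called. Plant U3 fell in the second step, and the Cajal body RNA named Small Cajal body specific RNA 6 fell in the first and rose in the second. A step that was called and one that was not were not tested against each other.

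U3 and U14 are among the snoRNAs that take part in precursor cleavage. Plant U3 (RF01847), which base-pairs with the ribosomal RNA precursor and is needed for the release of small-subunit ribosomal RNA, had 406, 356 and 417 reads at day 7, 487, 458 and 432 at day 22, and 262, 255 and 219 at day 37. In CPM, which do not correct for RNA length, it was the leading entry on day 7, at 127 ± 13.4 CPM, with 131 ± 16.8 CPM on day 22 and 87.6 ± 12.1 CPM on day 37. The day 37 libraries lay below all others. The log2 change was -0.58 at day 37 against day 22 (SE 0.14, edgeR adjusted p = 0.00868) and -0.53 against day 7 (SE 0.14, adjusted p = 0.0083), and 0.05 at day 22 against day 7 (adjusted p = 0.766). That first step was called lower with library totals (-0.40, adjusted p = 0.0159), structural totals (-0.94, adjusted p = 0.0091) and known miRNA totals (-0.74, adjusted p = 0.00715). The call against day 22 was lost with known miRNA totals, at -0.04, and that against day 7 with upper quartile factors, at -0.27. Over all entries tested, the median log2 change of day 37 was -0.15 against day 22 and -0.57 against day 7. The fall of plant U3 against day 7 was thus close to that median. Of all snoRNA reads plant U3 took 22.8% ± 3.26 on day 7, 10.8% ± 0.948 on day 22 and 2.48% ± 0.332 on day 37, with no overlap between days.

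SNORD14 (RF00016), the U14 family, is a C/D box snoRNA that in yeast is needed to make small-subunit ribosomal RNA. It had 91, 55 and 57 reads at day 7, 488, 472 and 589 at day 22, and 590, 505 and 495 at day 37. Day 7 lay apart, and in raw reads day 22 and day 37 overlapped. The change at day 22 against day 7 was 6.66-fold (log2 2.74, SE 0.23, edgeR adjusted p = 2.02e-05), and at day 37 against day 7 it was 8.64-fold (log2 3.11, adjusted p = 4.59e-06). With structural totals the change at day 37 against day 7 was 0.026 on the log2 scale (adjusted p = 0.956), and the call was lost. The last step had a log2 change of 0.37 (adjusted p = 0.171), whose sign and call depended on the setting. It was called lower with structural totals (-1.80, adjusted p = 0.000478), was -0.10 with library totals and not called (adjusted p = 0.741), and was called higher with known miRNA totals (0.91, adjusted p = 0.00988), DESeq2 (0.53, adjusted p = 0.0427), these 2 days alone (0.42, adjusted p = 0.0392) and without day 7 replicate 1 (0.40, adjusted p = 0.038).

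Among the plant-named families, for most of which the labels give neither the box nor the modified site, snoR20a (RF01193) had the highest mean CPM over all 9 libraries, though at day 7 plant U3 and snoR14 stood above it. It had 202, 236 and 254 reads at day 7, 664, 633 and 621 at day 22, and 932, 1604 and 1336 at day 37. It rose in both steps, 2.46-fold at day 22 against day 7 (log2 1.30, SE 0.16) and 2.49-fold at day 37 against day 22 (log2 1.32, SE 0.15; edgeR adjusted p = 0.000134 and 0.000148). With structural totals the first step was 0.31 on the log2 scale and its call was lost (adjusted p = 0.48). Day 37 replicate 1 was its lowest library of that day.

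The family snoR14 (RF01280) had 316, 257 and 199 reads at day 7, 347, 379 and 301 at day 22, and 916, 850 and 751 at day 37. Days 7 and 22 overlapped and day 37 lay above both. The rise at day 37 against day 22 was 3.05-fold (log2 1.61, SE 0.23, edgeR adjusted p = 0.000431). The log2 change of the first step was 0.24 (adjusted p = 0.37), and its sign turned under 5 other settings.

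Among the abundant entries snoR64a (RF01163) had libraries of a day that lay close together, with 40, 48 and 43 reads at day 7, 105, 90 and 106 at day 22, and 271, 267 and 269 at day 37. It rose 2.03-fold at day 22 against day 7 and 3.36-fold at day 37 against day 22 (edgeR adjusted p = 6.98e-05 and 2.7e-06). The call of the first step was lost with known miRNA totals (log2 0.24, adjusted p = 0.184) and with structural totals (0.061, adjusted p = 0.884). R16 (RF00296) had 46, 35 and 30 reads, then 85, 74 and 42, then 323, 209 and 291 at day 37. Its second step was 5.11-fold (log2 2.35, SE 0.34, adjusted p = 0.000492), a call lost with structural totals (0.28, adjusted p = 0.456), and its first had a log2 change of 0.69 (adjusted p = 0.128), called without day 22 replicate 3 (0.91, adjusted p = 0.0319).

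Of the entries of at least 10 CPM, snoR86 (RF00303) had the largest fitted rise at day 22. It had 3, 5 and 0 reads at day 7, 151, 144 and 130 at day 22, and 231, 201 and 222 at day 37. The log2 change at day 22 against day 7 was 5.50 (SE 0.44, edgeR adjusted p = 1.52e-05), from 40.5 ± 6.02 CPM at day 22 and 0.861 ± 0.795 CPM at day 7, so its size rests on 8 reads at day 7. The second step was 0.94 (adjusted p = 0.017), a call that was lost with library totals (0.47), with all reads as library size (0.66) and without day 22 replicate 3 (0.85).

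The next 3 entries rose at day 22 and were not called at day 37 against day 22. U61 (RF01170), whose human namesake is a C/D box guide, had 18, 12 and 10 reads at day 7, 203, 196 and 162 at day 22, and 130, 121 and 124 at day 37. Its rise at day 22 was 12.3-fold (log2 3.63, SE 0.26, edgeR adjusted p = 8.08e-06). R160 (RF00203), a plant family, had 4, 3 and 1 reads at day 7, 29, 47 and 42 at day 22, and 52, 48 and 36 at day 37, a rise of 12.5-fold at day 22 (log2 3.65, SE 0.45, adjusted p = 0.000152). The joint model Z279/snoR105/snoR108 (RF00304) had 9, 4 and 6 reads, then 99, 90 and 68, then 150, 88 and 58 at day 37, and rose 11.8-fold at day 22 (log2 3.56, SE 0.52, adjusted p = 0.000384). In all 3 the day 7 libraries lay below the rest, and days 22 and 37 overlapped in raw reads for R160 and Z279/snoR105/snoR108.

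Z152/R70/R12 (RF00350), a plant family, had 163, 137 and 144 reads at day 7, 160, 164 and 116 at day 22, and 225, 189 and 133 at day 37. In CPM the days overlapped in every comparison, and the log2 changes were -0.18, 0.63 and 0.45 (edgeR adjusted p = 0.563, 0.079 and 0.144). It was the 1 tested entry not called at day 37 against day 7. Its calls moved with the setting. At day 22 against day 7 it was called lower with library totals (-0.63, adjusted p = 0.0385), structural totals (-1.20, adjusted p = 0.00148) and known miRNA totals (-0.97, adjusted p = 0.0194). The comparison of day 37 with day 22 was called lower with structural totals (-1.48, adjusted p = 0.000313) and higher under 6 settings, with log2 changes of 0.62 to 1.19: RLE factors, upper quartile factors, known miRNA totals, the replicate block, DESeq2 and without day 37 replicate 3. At day 37 against day 7 it was called lower with structural totals (-2.68, adjusted p = 4.52e-06) and higher with upper quartile factors (0.71, adjusted p = 0.0342).

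**Figure D3:**
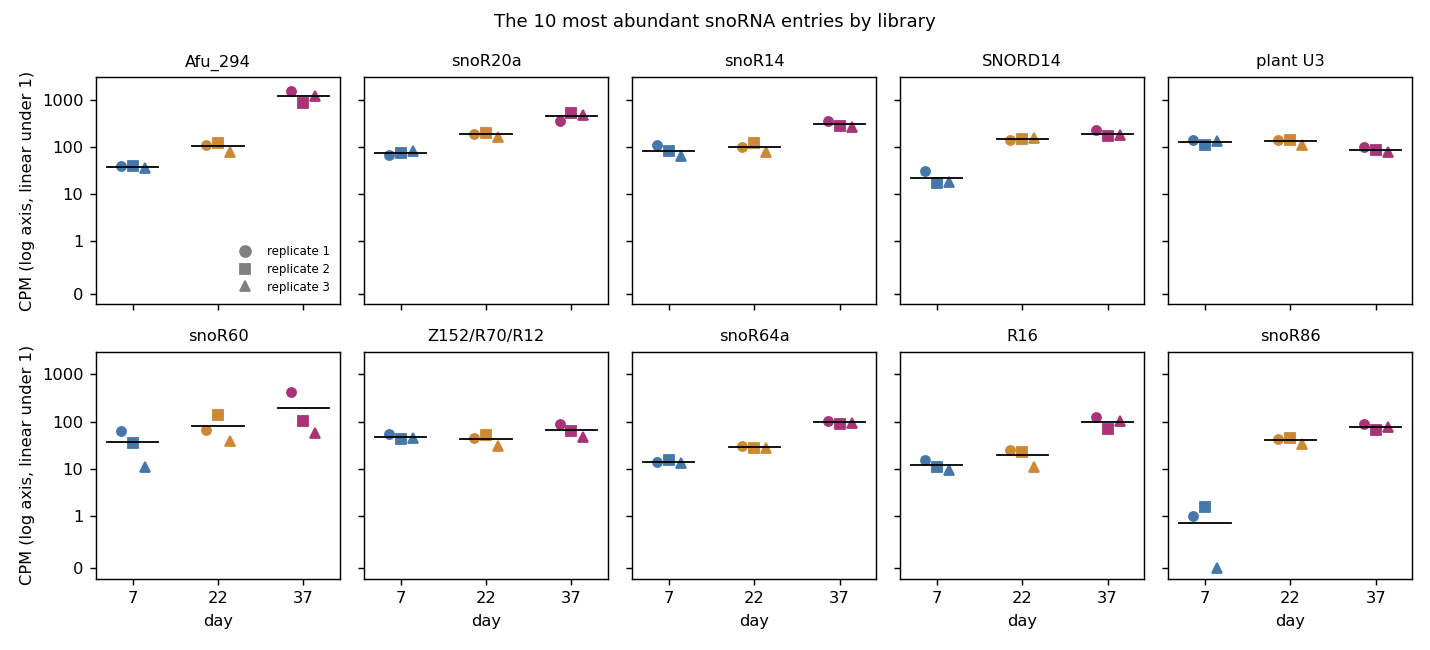
CPM of the 10 snoRNA entries with the highest mean CPM in each library at days 7, 22 and 37, on a log axis that is linear under 1. Points are libraries and lines are day means; plant U3 is lowest at day 37 (87.6 CPM), Afu_294 is highest there (1202 CPM), and snoR60 spreads widely within each day.

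The snoRNA entry with the most reads at day 37 was a model named for a fungus. Afu_294 (RF01506), described in the mould Aspergillus fumigatus, had 118, 123 and 113 reads at day 7, 375, 395 and 296 at day 22, and 3962, 2612 and 3438 at day 37. The days did not overlap. In CPM it stood at 38.0 ± 2.31 on day 7, 102 ± 23.5 on day 22 and 1202 ± 328 on day 37, a rise of 2.69-fold at day 22 against day 7 and of 11.8-fold at day 37 against day 22 (log2 3.56, SE 0.25, edgeR adjusted p = 7.97e-06). The call of its first step was lost with structural totals (log2 0.41, adjusted p = 0.148). It took 6.84% ± 0.690 of all snoRNA reads on day 7, 8.28% ± 0.353 on day 22 and 33.4% ± 4.58 on day 37.

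The other fungus-named entries were low until day 37. Afu_455 (RF01860) had 1, 0 and 1 reads at day 7, 9, 13 and 10 at day 22, and 130, 112 and 93 at day 37. Relative to day 22, the day 37 change was 13.0-fold (log2 3.70, SE 0.31, edgeR adjusted p = 2.31e-05), and against the 2 reads of day 7 the ratio was 185 with a 95% exact counting interval of 50.8 to 1534. Fungal U3 (RF01846), a model separate from plant U3, had 0 reads in all day 7 libraries, 0, 1 and 0 at day 22, and 21, 17 and 20 at day 37. Afu_513 had 0 at day 7, 1, 0 and 0 at day 22, and 18, 23 and 18 at day 37. Taking 3 reads over the day 7 group as the limit that a count of 0 allows, fungal U3 was at least 21.5-fold and Afu_513 at least 21.7-fold higher at day 37. Afu_455, fungal U3 and Afu_513 passed the filter only through the day 37 libraries, where they are high. Their calls at day 37 thus support nothing beyond the reads given.

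Together the 8 fungus-named entries held 119, 123 and 114 reads at day 7, 385, 410 and 306 at day 22, and 4143, 2773 and 3576 at day 37. That is 6.88% ± 0.678, 8.55% ± 0.347 and 35.0% ± 4.46 of the snoRNA reads. The entries named snR as in yeast held 9, 4 and 8 reads, then 17, 24 and 14, then 104, 83 and 89 at day 37. Of these snR67 and snR73, at 0 reads in all 6 libraries of days 7 and 22, had 23, 4 and 13 and 9, 9 and 3 reads at day 37. The sR entries held 3 to 13 reads in every library and had 16, 25 and 19 reads in all over the 3 days. From which organism the reads came was not tested. Without the fungus-named entries snoRNAs held 0.0716% ± 0.00998, 0.112% ± 0.0178 and 0.169% ± 0.0370 of small RNA reads at days 7, 22 and 37, and the days still did not overlap. The ratio of day 37 to day 22 was then 1.50 in place of 2.11, and that of day 37 to day 7 was 2.36 in place of 3.38.

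**Figure D4:**
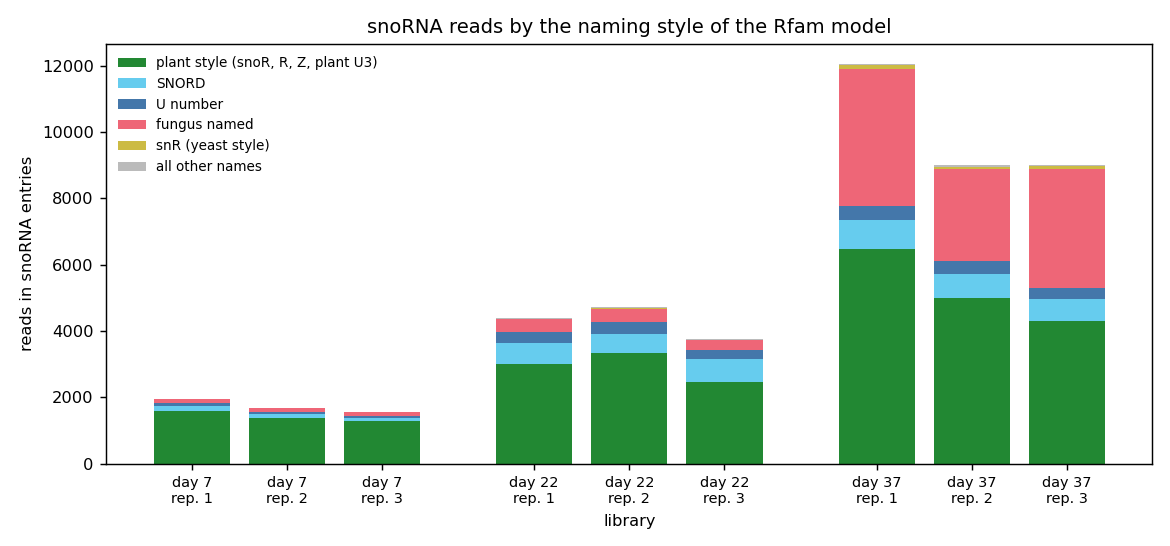
Reads in snoRNA entries per library, stacked by the naming style of the Rfam model. Fungus-named entries hold 114 to 123 reads on day 7, 306 to 410 on day 22 and 2773 to 4143 on day 37, and plant-style entries are the largest group in every library.

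The plant-style entries held 1589, 1384 and 1284 reads at day 7, 3014, 3327 and 2466 at day 22, and 6484, 4995 and 4295 at day 37. Pooled over libraries they were 81.6% of the snoRNA reads on day 7, 68.6% on day 22 and 52.5% on day 37. The SNORD entries held 6.27%, 14.6% and 7.43%, most of it SNORD14, and the U-number entries 4.05%, 7.55% and 3.84%. Entries whose C/D box is told held 29.0% ± 2.71 of the snoRNA reads on day 7, 25.6% ± 3.71 on day 22 and 10.1% ± 0.726 on day 37. Day 37 lay below both other days (exact two-sided permutation p = 0.1, adjusted 0.12), and days 22 and 7 overlapped (p = 0.3, adjusted 0.3). Plant U3 alone held 1179 of the 1507 reads in told entries at day 7, 1377 of 3252 at day 22 and 736 of 3029 at day 37. The lower share at day 37 than at day 7 is thus that of plant U3, since the SNORD entries did not fall from day 7 to day 37. Since the box of most entries is untold, this is a share of the told entries and not of C/D box snoRNAs as a class.

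Among the 6 tested entries with a told C/D box, 3 were higher at day 22 against day 7 and 0 lower, 4 were higher and 1 lower at day 37 against day 22, and 5 were higher and 1 lower at day 37 against day 7. The lower one was plant U3. Over all entries tested the shares higher and lower were 35.3% and 34.5%, 18.8% and 31.8%, and 33.1% and 45.6%, and with 6 entries these counts show nothing particular to them. SNORD61 (25, 25 and 22 reads at day 7, 59, 57 and 62 at day 22, 75, 69 and 65 at day 37) had no overlap between the days. SNORD57 (RF00274) had 3, 2 and 1 reads, then 5, 10 and 4, then 52, 42 and 28 at day 37, which is 7.79-fold above day 22 (log2 2.96, SE 0.53, edgeR adjusted p = 0.00161). It passed the filter only through the day 37 libraries, where it is high, so this call supports nothing beyond the reads given. U18 (RF01159), whose human namesake is a C/D box guide, had 4, 3 and 4 reads, then 13, 16 and 11, then 92, 45 and 37 at day 37, a second step of 5.46-fold (log2 2.45, SE 0.44, adjusted p = 0.00163). With structural totals both calls were lost, at 0.90 for SNORD57 (adjusted p = 0.179) and 0.26 for U18 (adjusted p = 0.723). Without day 37 replicate 1 the second step of U18 was 3.62-fold (log2 1.86, adjusted p = 0.00389). The 6 tested U-number entries were all higher at day 37 than at day 7, as were 39 of all 41 tested snoRNAs and 33.1% of all entries tested. The entry snoR2/U65, whose U number is that of a human H/ACA guide, had 9, 14 and 11 reads, then 46, 43 and 22, then 98, 78 and 57 at day 37, and was called higher in both steps.

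The Small Cajal body specific RNA 6 entry (RF00478) was the 1 tested entry called lower in the first step and higher in the second. It had 6, 9 and 6 reads at day 7, 3, 3 and 3 at day 22, and 23, 31 and 34 at day 37. The log2 change was -1.36 at day 22 against day 7 (SE 0.35, edgeR adjusted p = 0.0168), the 1 fall called in that comparison, and 3.54 at day 37 against day 22 (SE 0.36, adjusted p = 6.34e-05). The fall rests on few reads, and its call was lost without day 7 replicate 2 (adjusted p = 0.066) and with the replicate number as a block (0.152). It was picked out for its rise at day 37, and its fall at day 22 was named after its values were seen. The entry passed the filter only through the day 37 libraries, where it is high. Its call at day 37 thus supports nothing beyond the reads given. The snR79 entry changed in the same directions, with 2, 1 and 43 reads in all at days 7, 22 and 37. The first step of snR79 was not called (log2 -0.91, edgeR adjusted p = 0.551).

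Some entries differed as much between libraries of a day as between days. The plant family snoR60 (RF00339) had 184, 114 and 34 reads at day 7, 234, 438 and 152 at day 22, and 1071, 314 and 162 at day 37. Its call at day 37 against day 7 (log2 2.40, SE 0.89, edgeR adjusted p = 0.034) was lost without day 37 replicate 1 (log2 1.16, adjusted p = 0.179), without day 7 replicate 2 (2.35, 0.0921) or 3 (1.92, 0.105), and without day 22 replicate 1 (2.40, 0.0531). Z103 had 47, 33 and 29 reads, then 92, 165 and 46, then 386, 126 and 91 at day 37, and R11/Z151 had 12, 2 and 0, then 9, 49 and 7, then 111, 31 and 12. Z101, an untested plant family, had 1, 0 and 0 reads at day 7, 0 in all at day 22, and 345, 2 and 2 at day 37, so that 1 library holds nearly all of its 350 reads.

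In day 37 replicate 1, 9 of the 41 tested entries stood at 2-fold or more over the mean CPM of replicates 2 and 3. They were R11/Z151 (5.88-fold), snoR60 (5.11-fold), Z103 (4.02-fold), snoR1, U31b, U18, Z107/R87, Z279/snoR105/snoR108 and SNOR75, the last 6 between 2.20 and 3.31-fold. In the same library 5S ribosomal RNA stood 8.73-fold, tRNA 7.33-fold and U1 spliceosomal RNA 6.10-fold over the other replicates, and U6 spliceosomal RNA 1.06-fold. The median ratio over the tested snoRNAs was 1.43. In day 22 replicate 3, 15 of the 41 lay at 0.5 or less of the mean of the other replicates, with a median ratio of 0.639, and U1 spliceosomal RNA stood at 0.275 there. The part of these differences in the results for the named entries was not tested beyond leaving each library out.

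**Figure D5:**
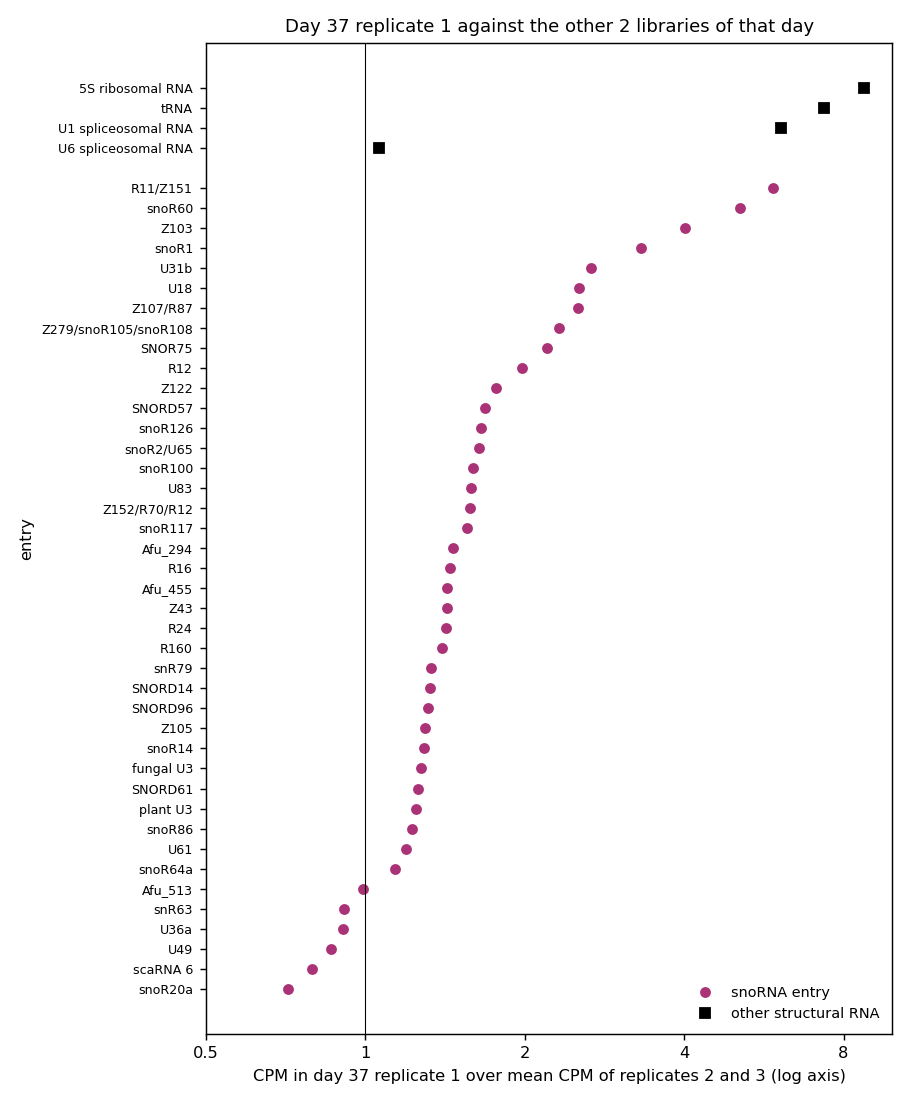
Ratio of CPM in day 37 replicate 1 to the mean CPM of day 37 replicates 2 and 3 for each tested snoRNA entry (circles) and for 4 other structural RNAs (squares), on a log axis. snoR20a is lowest at 0.715, R11/Z151 highest of the snoRNAs at 5.88, and 5S ribosomal RNA stands at 8.73.

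The 3 leading entries of a library took 51.0% ± 4.11 of its snoRNA reads on day 7, 38.1% ± 5.33 on day 22 and 55.7% ± 5.93 on day 37, and the leading 10 took 83.3% ± 0.963, 74.8% ± 2.33 and 78.2% ± 3.19. For the leading 3, every day 22 library lay below all others. At day 7 the leading entries were plant U3, snoR14 and snoR20a, at day 22 snoR20a, SNORD14 and plant U3, and at day 37 Afu_294, snoR20a and snoR14. Plant U3 was 1st of the entries by mean CPM at day 7 and 8th at day 37. In day 7 libraries its values lay above all those of snoR14, and those of snoR14 overlapped with snoR20a.

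The 88 entries that were not tested held 1022 reads in all, at most 350 in any entry. Of all 129 entries 66 had under 10 reads over the 9 libraries and 31 had a single read. A read at all 3 days was found for 52 entries and in all 9 libraries for 33, while 29 had reads at day 37 alone, 11 at day 22 alone and 6 at day 7 alone. The number of entries with at least 1 read was 48 to 54 per library on day 7, 56 to 74 on day 22 and 71 to 94 on day 37, with more small RNA reads at the later days. A count of 0 in a library allows up to 3 reads, so for most of these entries a difference between days was not detectable at this depth.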

How the data were processed

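Small RNA of 9 libraries was analysed, 3 at each of 3 days. CTAB and pBIOZOL were used to extract RNA, 18 to 30 nt RNA was cut from a gel, adapters with molecular identifiers were ligated and libraries were sequenced on a BGI platform, per the labels' protocols. Per the submitters' processing notes Bowtie2 was used, with no version. For the build, the counter, any filter and the use of the identifiers, the sources used here give nothing. Per the file headers the deposited values are read counts per entry, not normalized. The deposited columns headed TPM lie at or under the counts and do not sum to one total, so they were treated as a score with no stated meaning and tried as an alternative only. The authors' other files, on predicted siRNAs and miRNAs, were not used.

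Library size was the sum of all entries but the exon, intron and intergenic totals. All 9 libraries were fitted together in edgeR 4.0.16 under R 4.3.3 (TMM factors, filterByExpr by day, quasi-likelihood F test, Benjamini-Hochberg over all 7294 small RNAs tested, threshold 0.05). Shares were compared by exact two-sided permutation tests in scipy 1.17.1. A count of 0 was read as at most 3 reads, per library or, for a fold bound, over the group; this and the 95% counting intervals cover counting error only. Named entries are the 10 most abundant, the U3 entries and, per comparison, up to 5 rises and 5 falls with adjusted p under 0.05, no overlap and at least 10 CPM on either day; other entries were named after their values were seen. No Description gives an H/ACA box, so H/ACA shares have no value. The members and lists were chosen with earlier results of these data known. The fit was tested on simulated data. It recovered 22 of 100 simulated 2-fold changes and 96 of 100 simulated 4-fold changes, with 3 false calls. There 200 of 6790 entries tested were changed, at day 22 alone, and the spread between libraries was set alike for all entries. In the real data 50.6% to 78.7% of entries were called, so these rates do not carry over to the steps given here. A step that was not called may still hold a change, whose size limit was not determined. Alternatives were other scalings and filters, DESeq2 1.42.0, the replicate number as a block, the values headed TPM, each pair of days alone, and each library left out.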

Additional observations from a re-analysis of the deposited data

How the results depend on the processing

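Relative to the median of all entries, which RLE factors moved by -0.34, 0.15 and -0.19 (log2; day 22 against day 7, day 37 against day 22, day 37 against day 7), upper quartile factors by 0.07, 0.15 and 0.26, library totals by -0.44, -0.47 and -0.91, all reads by 0.11, -0.28 and -0.12, structural totals by -1.01, -2.15 and -3.16 and miRNA totals by -0.84, 0.15 and -0.28, the median of the tested snoRNAs stood 1.50 to 1.61, 1.51 to 1.99 and 3.56 to 3.72 higher under these 6 scalings. A change of scale moves all entries by about the same amount, so this distance could hardly change and is no support for the rise. Numbers of entries called moved by over 1.5 times as follows. At day 22 against day 7, structural totals gave 11 higher and 4 lower, miRNA totals 13 higher and 3 lower, library totals 3 lower, and the replicate block and the fit of these 2 days alone 0 lower. At day 37 against day 22, structural totals gave 3 higher and 14 lower, library totals and all reads 2 lower, and miRNA totals 0 lower. At day 37 against day 7, structural totals gave 3 higher and 7 lower, and upper quartile factors 0 lower.

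With structural totals the log2 change turned, at day 22 against day 7, in snoR14 (-0.74), plant U3 (-0.94) and R16 (-0.34); at day 37 against day 22, in snoR20a (-0.73), snoR14 (-0.50), SNORD14 (-1.80), snoR60 (-0.98), Z152/R70/R12 (-1.48), snoR64a (-0.38) and snoR86 (-1.17); at day 37 against day 7, in snoR20a (-0.43), snoR14 (-1.23), snoR60 (-0.85), Z152/R70/R12 (-2.68), snoR64a (-0.32), R16 (-0.063) and Small Cajal body specific RNA 6 (-0.83). Changes of snoR14 at day 22 against day 7 also turned with RLE factors (-0.11), library totals (-0.21), miRNA totals (-0.54) and DESeq2 (-0.10). Those of plant U3 there turned with RLE factors (-0.30), library totals (-0.40), miRNA totals (-0.74), the values headed TPM (-0.020), DESeq2 (-0.29) and without day 7 replicate 2 or day 22 replicate 2 (-0.11 to 0.080 over all libraries left out), R16 with miRNA totals (-0.092), SNORD14 at day 37 against day 22 with library totals (-0.10) and Z152/R70/R12 at day 37 against day 7 with library totals (-0.47). Apart from the scale itself, the cause was not tested.

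Leaving out each library gave 19 to 26, 21 to 27 and 36 to 42 higher entries in the 3 comparisons and 0 to 1, 1 to 1 and 1 to 1 lower. Differences between days in percentage points ran from 0.0368 to 0.0565, 0.106 to 0.155 and 0.152 to 0.201 for the share of small RNA reads, 0.00655 to 0.00843, 0.0145 to 0.0204 and 0.0220 to 0.0278 for all reads, -5.40 to -1.73, -17.2 to -13.5 and -19.9 to -17.3 for told C/D entries, and 0.0593 to 0.294, -0.838 to -0.603 and -0.592 to -0.503 within structural RNA. All share differences kept their sign under every alternative run. Same-numbered libraries of different days correlated at -0.04 to 0.14 in their deviations from the day means, not over 0.1 in every pair, so the numbers were not taken to pair samples; with the replicate block 22, 19 and 37 entries were higher and 0, 1 and 1 lower.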
